A study of Homo sapiens with 10 samples.

Results

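A set of 9 genes of the S100 and annexin families, 5 S100 genes (S100A4, S100A6, S100A10, S100A11 and S100A13) and 4 annexin genes (ANXA1, ANXA2, ANXA5 and ANXA6), were followed in bortezomib-resistant and matched mantle cell lymphoma cells. The genes were chosen by name with earlier results of these data known. Every probe set annotated to only 1 of these symbols was read, 17 of the 41091 probe sets with 1 gene symbol, and the probe set with the highest mean over the 10 arrays stood for its gene. That choice used the mean of all arrays and no difference between groups. All 9 genes were among the 14529 genes tested, and 14 of the 17 probe sets passed the filter on low values.

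Each array was hybridised with biotin-labelled RNA of cultured HBL2 or JEKO cells, which are established lines of mantle cell lymphoma, a tumour of mature B cells. HBL2 has 3 PT and 3 BR arrays, and JEKO has 2 of each. BR cells carry a resistance that was induced with bortezomib, a proteasome inhibitor. The labels do not spell out PT, which is read here as parental on the basis of what is known of the study. All cultures were in logarithmic growth, and no drug dose, exposure time or number of resistant clones is given in the sources used here. Whether the replicates came from different cultures is not in the labels. The p-values therefore speak only of how these arrays vary, and that variation may be technical.

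S100 proteins are small proteins with paired EF-hand motifs, and most, but not all, are calcium sensors that bind a partner protein when calcium rises. Annexins are calcium-dependent binders of acidic phospholipids and are used in membrane traffic, repair and the link between membrane and actin. The families meet in fixed pairs: S100A10 joins annexin A2 in a tetramer at the inner face of the plasma membrane, S100A11 binds annexin A1, and S100A6 binds several annexins. In the B lineage these genes are better known from memory and activated cells than from naive cells.

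Values are deposited scores on a log-like scale of unstated base that runs from 0 to 4.99. All arrays hold the same set of scores, so a score says only where a probe set ranks among the others: 0.73 was the 50th percentile, 1.18 the 75th, 2.04 the 95th and 2.82 the 99th. Changes are differences in these units and not fold changes, and levels of different probe sets were not set against each other. In bulk RNA, fewer cells with a transcript and less transcript per cell cannot be told apart. Arrays of 1 group correlated at 0.932 to 0.958 over all probe sets and arrays of different lines at 0.892 to 0.913. Of 9 B cell and mantle cell markers, 8 had a probe set and all 8 passed the filter, among them MS4A1 (group means 2.78 to 3.07), CD79A (2.17 to 2.52), CCND1 (2.61 to 3.29) and SOX11 (1.42 to 1.97). CD5, a surface marker of mantle cell lymphoma, was dim, with group means of 0.55 to 0.95.

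Promoter windows from 250 bases before to 50 bases after the annotated start were found for all 9 genes in RefSeq (GRCh38.p14). Those below belong to S100A4 and S100A10, the genes called in opposite directions in the 2 lines, to S100A6, which neighbours S100A4 on chromosome 1, and to ANXA1, whose call in HBL2 went the other way. They are written 5′ to 3′ along the gene, and capitals mark matches on either strand to the TATA box letters (TATAAA), the CCAAT box letters, the GC box letters (GGGCGG) or the AP-1 letters (TGANTCA).
S100A4 (chr1:153545757-153546056, minus strand): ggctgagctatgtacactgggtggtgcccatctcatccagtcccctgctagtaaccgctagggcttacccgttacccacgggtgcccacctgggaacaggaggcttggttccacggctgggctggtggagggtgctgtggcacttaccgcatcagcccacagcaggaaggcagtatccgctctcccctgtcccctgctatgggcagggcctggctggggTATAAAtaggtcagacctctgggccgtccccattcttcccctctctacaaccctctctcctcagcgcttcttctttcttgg
S100A10 (chr1:151993810-151994109, minus strand): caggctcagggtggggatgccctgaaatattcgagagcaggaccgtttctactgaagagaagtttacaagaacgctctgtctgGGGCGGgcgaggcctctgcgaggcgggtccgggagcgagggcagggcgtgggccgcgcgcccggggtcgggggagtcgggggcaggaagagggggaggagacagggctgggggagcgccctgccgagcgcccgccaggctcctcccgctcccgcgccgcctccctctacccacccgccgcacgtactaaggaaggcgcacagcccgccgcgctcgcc
S100A6 (chr1:153535942-153536241, minus strand): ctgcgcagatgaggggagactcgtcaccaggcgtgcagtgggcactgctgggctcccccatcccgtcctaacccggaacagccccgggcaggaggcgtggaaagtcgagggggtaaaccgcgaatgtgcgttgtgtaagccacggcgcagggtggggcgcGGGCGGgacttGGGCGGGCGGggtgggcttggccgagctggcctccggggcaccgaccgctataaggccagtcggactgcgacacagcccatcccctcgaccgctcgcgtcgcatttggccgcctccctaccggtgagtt
ANXA1 (chr9:73151615-73151914, plus strand): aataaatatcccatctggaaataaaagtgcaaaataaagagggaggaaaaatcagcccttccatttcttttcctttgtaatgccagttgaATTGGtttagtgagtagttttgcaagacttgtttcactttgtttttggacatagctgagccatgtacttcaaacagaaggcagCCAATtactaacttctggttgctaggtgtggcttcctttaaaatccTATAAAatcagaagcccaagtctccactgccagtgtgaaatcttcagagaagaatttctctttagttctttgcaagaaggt
The TATAAA match of S100A4 began 31 bases before the start, as did those of ANXA1 and ANXA2, and the other 6 genes had none. Of 27305 promoter windows of this length, 12% held that motif. S100A6 had 3 GGGCGG matches, of which a pair overlaps, and S100A10 had 1, against 44.6% of all windows with at least 1. ANXA1 had 2 CCAAT matches (35.7% of windows hold it) and ANXA2 the only TGANTCA match of the 9 (7.76%). S100A10 had 32 CpG dinucleotides and S100A6 had 31, against 8 in S100A4, 0 in ANXA1 and a median of 14 over all windows. S100A4 and S100A10, whose scores moved in the same directions, thus had windows that differ in these letters.

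In HBL2, 4 of the 5 S100 genes fell in the resistant cells and ANXA1 rose. Of all genes tested in HBL2, 6.86% were called lower and 4.91% higher. In JEKO, S100A10, S100A4 and ANXA6 rose and 0 of the 9 fell, where 2.56% of all genes were called higher and 1.72% lower. With so small a share called lower, the absence of falls in JEKO says little. S100A10 and S100A4 were thus lower after resistance in one line and higher in the other. The JEKO calls of S100A4 and ANXA6 were lost when any single JEKO array was left out, although both genes still rose. ANXA2, the partner of S100A10, was not called in either line, nor were ANXA5 and S100A13.

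**Figure D1:**
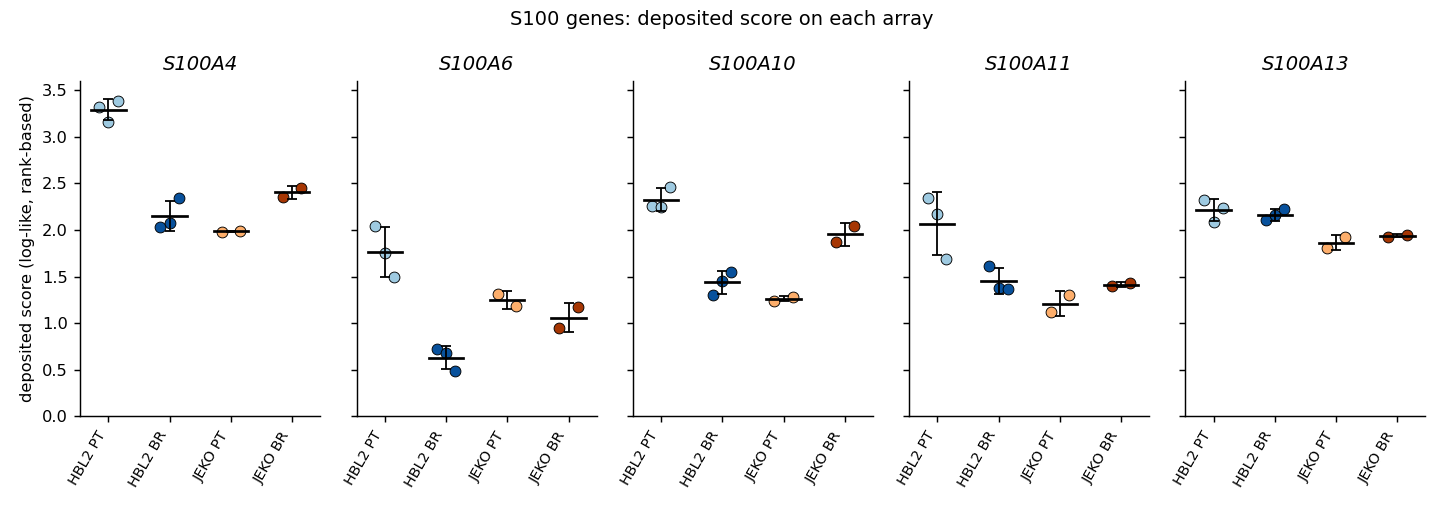
Deposited score (vertical axis, log-like units) of the 5 S100 genes on each array, by group; points are arrays, bars are group means and whiskers are 1 SD (3 HBL2 and 2 JEKO arrays a group). For S100A4 the HBL2 PT arrays lie between 3.17 and 3.39, above the arrays of the other groups (1.98 to 2.45), and for S100A10 the HBL2 BR arrays (1.31 to 1.55) lie below JEKO BR (1.87 and 2.04).

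S100A4, which binds nonmuscle myosin and is linked to cell motility, scored 3.32, 3.17 and 3.39 on the HBL2 PT arrays and 2.04, 2.08 and 2.34 on the HBL2 BR arrays. The groups did not overlap, and each PT array stood above the 99th percentile of its array. The change was -1.14 ± 0.078 (SE), with an adjusted p of 7.79e-08 (limma). Of all genes tested in HBL2, 6.86% were called lower and 4.91% higher, 11.8% in all, which is the background for the member counts.

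In JEKO the same gene scored 1.98 and 1.99 in PT and 2.35 and 2.45 in BR, again without overlap. It rose by 0.42 ± 0.096 (adjusted p = 0.022, limma), where 2.56% of all genes were called higher and 1.72% lower, 4.28% in all. This call was lost without any 1 of the 4 JEKO arrays: adjusted p was 0.14 without PT replicate 1, 0.11 without PT replicate 2, 0.070 without BR replicate 1 and 0.22 without BR replicate 2. It was also lost without the intensity trend (adjusted p = 0.067). The change stayed between 0.37 and 0.47 in these 5 fits. S100A4 has a single probe set, an _s_at set, whose probes can match more than 1 transcript.

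The order of S100A4 levels was HBL2 PT (3.29 ± 0.11, SD), JEKO BR (2.40 ± 0.068), HBL2 BR (2.15 ± 0.16) and JEKO PT (1.99 ± 0.0075). The gaps of 0.89 below HBL2 PT and of 0.25 between the resistant groups were larger than the SD of each group. The gap of 0.17 between HBL2 BR and JEKO PT was about the SD of HBL2 BR, although no ranges overlapped. The HBL2 change minus the JEKO change was -1.56 ± 0.12 (adjusted p = 2.01e-06, limma). For this difference between the lines, 5.76% of all genes were called lower and 2.95% higher, 8.71% in all.

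S100A10, the small subunit of the complex with annexin A2 and a surface receptor of plasminogen, scored 2.26, 2.25 and 2.46 in HBL2 PT and 1.31, 1.46 and 1.55 in HBL2 BR. No BR array reached a PT array. It fell by 0.89 ± 0.077 (adjusted p = 9.05e-07, limma). The JEKO PT arrays scored 1.24 and 1.28 and the BR arrays 1.87 and 2.04, a rise of 0.69 ± 0.094 (adjusted p = 5.85e-04, limma). That call held without each array in turn, with adjusted p up to 0.024 (without JEKO BR replicate 2). The lines differed by -1.58 ± 0.12 (adjusted p = 1.58e-06, limma).

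The fainter S100A10 probe set scored 0.46 to 0.94, between the 22nd and the 64.8th percentile of its array. Its changes were -0.24 in HBL2 (adjusted p = 0.31) and -0.038 in JEKO (adjusted p = 0.96, limma over all probe sets). With the median of both probe sets the JEKO call was lost (0.33, adjusted p = 0.081), the HBL2 fall was 0.56 (adjusted p = 2.99e-04) and the difference between the lines was -0.89 (adjusted p = 6.36e-04).

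Levels of S100A10 ran from HBL2 PT (2.32 ± 0.12) through JEKO BR (1.95 ± 0.12) and HBL2 BR (1.44 ± 0.12) to JEKO PT (1.26 ± 0.029). No ranges overlapped, and each gap was larger than the SDs beside it.

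S100A6, known as calcyclin and found high in dividing and motile cells, had the largest drop in rank. It scored 2.04, 1.75 and 1.5 in HBL2 PT and 0.72, 0.67 and 0.49 in HBL2 BR. The PT arrays placed it at the 84.8th to 95th percentile and the BR arrays at the 24.6th to 48.8th, below the middle of the array. It fell by 1.13 ± 0.11 (adjusted p = 2.68e-06, limma), or by 0.62 when the median of both its probe sets was taken (adjusted p = 0.0019).

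In JEKO the S100A6 scores were 1.31 and 1.18 in PT and 0.95 and 1.17 in BR, a change of -0.19 with a 95% interval of -0.47 to 0.095 (adjusted p = 0.52). The ranges just failed to meet. The lines differed by -0.95 ± 0.17 (adjusted p = 0.0026, limma). The other S100A6 probe set lay between 0.12 and 0.67 and failed the filter.

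S100A11, the partner of annexin A1, was the most scattered S100 gene in HBL2 PT, at 2.34, 2.17 and 1.69. HBL2 BR scored 1.61, 1.38 and 1.36, so the highest BR array came within 0.08 of the lowest PT array. It fell by 0.62 ± 0.12 (adjusted p = 0.0027, limma). In JEKO it scored 1.12 and 1.30 in PT and 1.40 and 1.43 in BR, a change of 0.20 with a 95% interval of -0.11 to 0.52 (adjusted p = 0.54). The difference between the lines, -0.82 ± 0.19, passed the test (adjusted p = 0.013, limma), but not without JEKO PT replicate 1 (-0.73, adjusted p = 0.081) or JEKO BR replicate 2 (-0.81, adjusted p = 0.067).

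RNA quality was read from the beta-actin and GAPDH controls, as the 5' probe set minus the 3' probe set. The beta-actin value moved with some of these scores in HBL2 PT, but mostly not in the same way in HBL2 BR. In HBL2 PT this value was -1.25 on replicate 1, -0.86 on replicate 2 and -0.58 on replicate 3, and S100A11, S100A6 and ANXA6 were highest on replicate 1 and lowest on replicate 3. S100A4 and S100A10 were highest on replicate 3. In HBL2 BR the beta-actin value was -0.69 on replicate 1, -0.83 on replicate 2 and -1.04 on replicate 3. There S100A11 and S100A6 were lowest on replicate 3, and S100A4, S100A10 and ANXA6 were highest on it. Of these genes, only ANXA6 was highest at the lowest beta-actin value in both HBL2 groups. With the beta-actin value as a covariate, S100A11 fell by 0.60 (adjusted p = 0.0011) and S100A6 by 1.11 (adjusted p = 1.5e-06, limma). The GAPDH value did not run in this order in HBL2 PT, at -0.43 on replicate 1, -0.27 on replicate 2 and -0.44 on replicate 3. It was lowest of all arrays on JEKO BR replicate 2 (-0.64), and it was not used as a covariate.

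S100A13, which takes part in the release of FGF1 and IL1A outside the classical secretory route, was not called in either line. HBL2 PT scored 2.33, 2.08 and 2.24 and HBL2 BR 2.1, 2.16 and 2.22, with full overlap. JEKO scored 1.81 and 1.92 in PT and 1.93 and 1.95 in BR, ranges that just failed to meet. The changes were -0.053 in HBL2 (95% interval -0.20 to 0.089) and 0.073 in JEKO (-0.10 to 0.25), with adjusted p of 0.70 and 0.73.

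**Figure D2:**
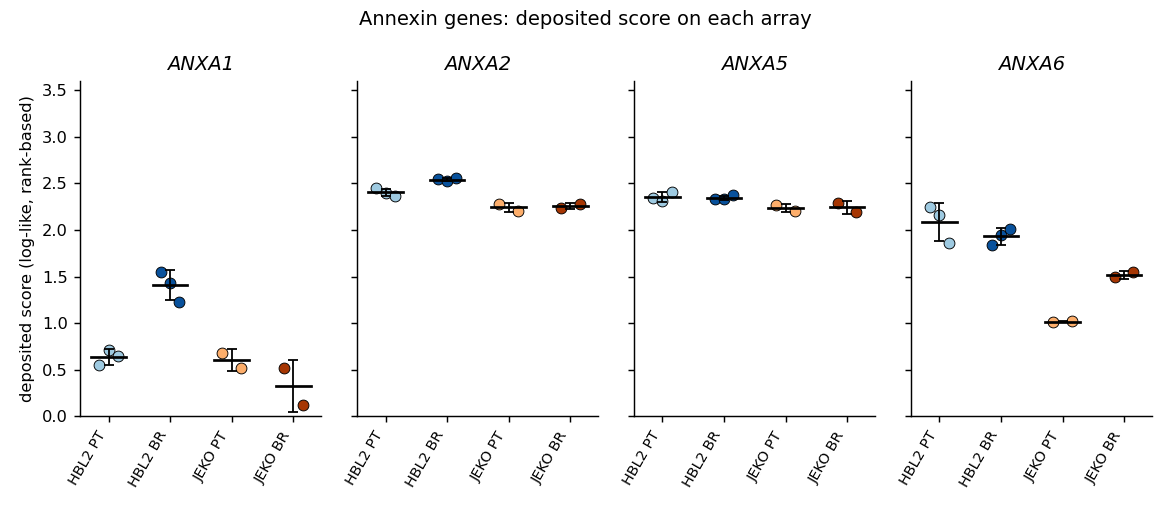
Deposited score (vertical axis, log-like units) of the 4 annexin genes on each array, drawn as for the S100 genes: points are arrays, bars are group means, whiskers are 1 SD. ANXA1 is highest on the HBL2 BR arrays (1.23 to 1.55), ANXA6 is lowest on the JEKO PT arrays (1.01 and 1.02), and ANXA2 and ANXA5 stay between 2.20 and 2.56 on all arrays.

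ANXA1, which encodes a glucocorticoid-induced inhibitor of phospholipase A2 that acts on formyl peptide receptors, was the member that rose in HBL2. It scored 0.54, 0.71 and 0.65 in PT, at or below the 48.4th percentile of the array, and 1.55, 1.44 and 1.23 in BR, at the 76.9th to 86.2nd. The groups lay far apart, and the rise was 0.77 ± 0.11 (adjusted p = 1.66e-04, limma). ANXA1 passed the filter through the HBL2 BR arrays alone, where it is high. That it differed between the HBL2 groups, and in its change between the lines, is thus partly set by the filter. In JEKO ANXA1 scored 0.68 and 0.52 in PT and 0.52 and 0.12 in BR, all below the 50th percentile. That change was -0.28 with a 95% interval of -0.57 to 0.0074 (adjusted p = 0.30), and the lines differed by 1.05 ± 0.17 (adjusted p = 0.0013, limma). The other ANXA1 probe set lay between 0.056 and 0.68. With the median of both sets the HBL2 rise was 0.27 (adjusted p = 0.094) and the difference between the lines 0.35 (adjusted p = 0.18).

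ANXA6, the annexin with a doubled core that helps to recruit a RAS GTPase-activating protein to membranes, rose in JEKO. It scored 1.01 and 1.02 in PT and 1.49 and 1.55 in BR, a rise of 0.51 ± 0.102 (adjusted p = 0.011, limma). As with S100A4, the call was lost without any 1 JEKO array: adjusted p was 0.083 without PT replicate 1, 0.068 without PT replicate 2, 0.054 without BR replicate 1 and 0.13 without BR replicate 2, with rises of 0.48 to 0.54. In HBL2 the scores were 2.24, 2.16 and 1.86 in PT and 1.84, 1.95 and 2.01 in BR, which overlap. That change was -0.15 (95% interval -0.33 to 0.024, adjusted p = 0.30), but it passed without HBL2 PT replicate 3, the lowest PT array (-0.27, adjusted p = 0.012).

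The lines differed in their ANXA6 change by -0.66 ± 0.13 (adjusted p = 0.005, limma). These calls rest on an _s_at probe set. The other probe set scored 0.46 to 0.93 and changed by 0.14 in JEKO (adjusted p = 0.73), and with the median of both the JEKO rise was 0.32 (adjusted p = 0.056) and the difference between the lines -0.39 (adjusted p = 0.052). Without _x_at and _s_at probe sets, the fainter set stood for the gene and the difference was -0.12 (adjusted p = 0.75).

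ANXA2, the membrane-binding partner of S100A10, scored 2.45, 2.40 and 2.36 in HBL2 PT and 2.54, 2.52 and 2.56 in HBL2 BR. The groups did not overlap, but the change of 0.14 was not called (95% interval 0.024 to 0.25, adjusted p = 0.12). In JEKO it scored 2.28 and 2.21 in PT and 2.23 and 2.28 in BR, a change of 0.016 (95% interval -0.12 to 0.16, adjusted p = 0.94). These intervals end far short of the S100A10 changes of -0.89 and 0.69. Both other bright ANXA2 probe sets changed by 0.11 each in HBL2 (adjusted p = 0.43 and 0.38) and by 0.052 and -0.008 in JEKO. All 3 bright sets are _x_at sets, which can bind related sequences, and ANXA2 has transcribed pseudogenes. The fourth set scored 0.022 to 0.59 and failed the filter.

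ANXA5, the phosphatidylserine binder used to stain dying cells, was the steadiest member. It scored 2.34, 2.31 and 2.41 in HBL2 PT and 2.33, 2.33 and 2.37 in HBL2 BR. In JEKO it scored 2.27 and 2.20 in PT and 2.29 and 2.20 in BR. The groups overlapped in each line, and the changes were -0.0085 (95% interval -0.13 to 0.11) and 0.009 (-0.14 to 0.16), with adjusted p of 0.95 and 0.97.

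**Figure D3:**
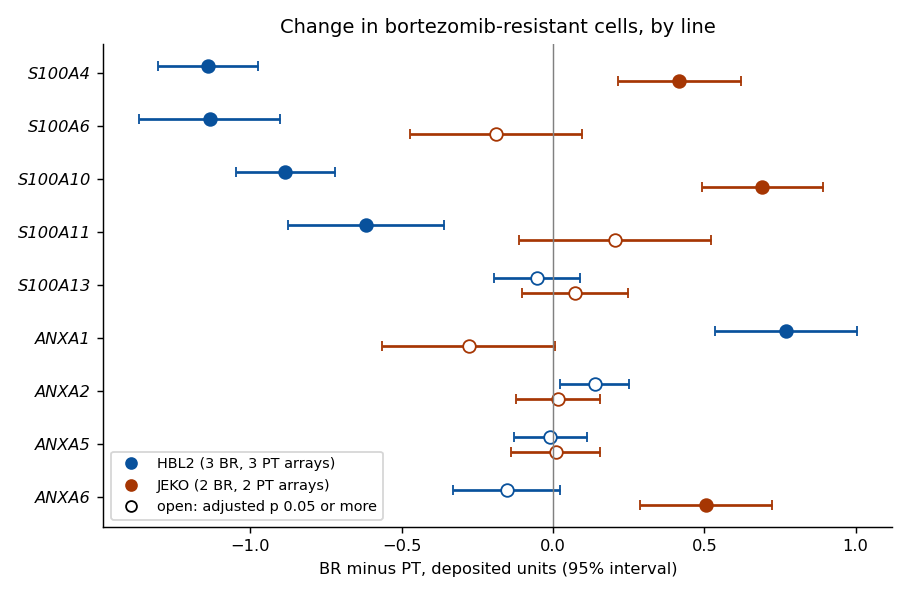
Change of each gene between BR and PT cells (horizontal axis, deposited units) in HBL2 (blue) and JEKO (brown); points are limma estimates, whiskers are 95% intervals and filled points have an adjusted p under 0.05. S100A4 and S100A10 lie left of 0 in HBL2 (-1.14 and -0.89) and right of 0 in JEKO (0.42 and 0.69), and ANXA1 lies right of 0 in HBL2 (0.77).

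Over the 9 genes the median change was -0.15 in HBL2 and 0.073 in JEKO, against -0.00099 and 0.012 over all genes tested. For the 5 S100 genes it was -0.89 and 0.20, and for the 4 annexins 0.065 and 0.013. The HBL2 calls were 4 lower and 1 higher (6.86% and 4.91% of all genes), and the JEKO calls were 3 higher and 0 lower (2.56% and 1.72%). The JEKO count of 3 was 1 without any one of PT replicate 1, PT replicate 2, BR replicate 1 and BR replicate 2, and 1 with the median over probe sets or without _x_at and _s_at sets. Of the difference between the lines, 5 members were called lower and 1 higher (5.76% and 2.95%). The genes were chosen with such results known, so these counts describe the list and carry no test.

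**Figure D4:**
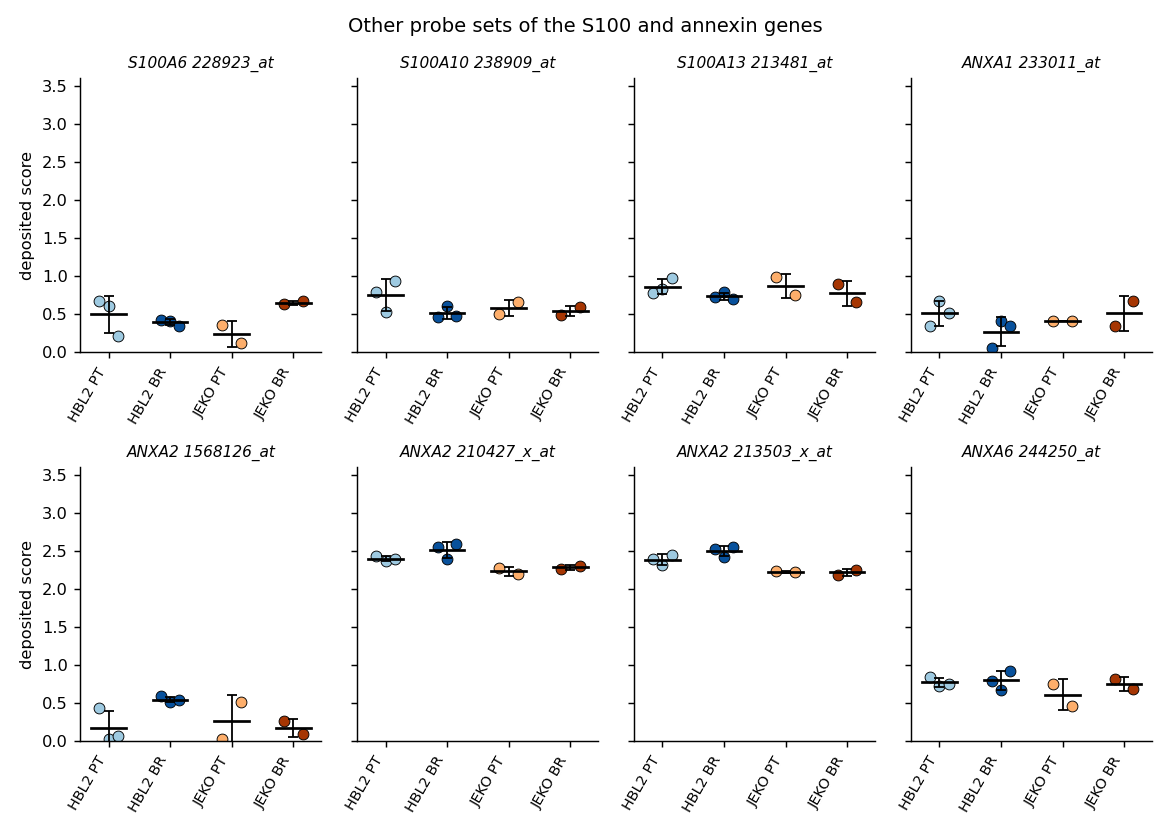
Deposited score (vertical axis, log-like units) on each array of the 8 further probe sets of the S100 and annexin genes; points are arrays, bars are group means and whiskers are 1 SD. Both bright ANXA2 sets stay above 2.18 on every array, and the other 6 sets stay below 1.0.

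Before resistance the lines already differed in these genes. HBL2 PT was above JEKO PT in all 5 S100 genes and in ANXA6, so 6 of the 9 were called higher and 0 lower, where 13.9% of all genes were called higher and 9.25% lower, 23.1% in all. This comparison shares its PT arrays with the changes above. In the list of other EF-hand proteins described below, 9 of 15 tested genes were also called higher in HBL2 PT and 1 lower. The higher level in HBL2 PT was thus not particular to the members. The difference was 1.31 ± 0.087 for S100A4 (adjusted p = 3.86e-08), 1.07 ± 0.093 for ANXA6 (adjusted p = 5.23e-07) and 1.06 ± 0.086 for S100A10 (adjusted p = 2.71e-07, limma). It was 0.86 for S100A11 (adjusted p = 2.55e-04), 0.51 for S100A6 (adjusted p = 0.0058) and 0.35 for S100A13 (adjusted p = 0.0028). The S100A6 call needed JEKO PT replicate 2 (0.45 and adjusted p = 0.076 in its absence), and it was lost with percentile ranks (adjusted p = 0.24). For S100A13 the call needed JEKO PT replicate 1 (0.30 and adjusted p = 0.058 in its absence), and it was lost with the median over probe sets (0.17, adjusted p = 0.072).

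The ANXA6 difference rests on its _s_at probe set. It was 0.62 with the median over probe sets, as it also was for S100A10, and 0.17 (adjusted p = 0.34) without _x_at and _s_at sets. ANXA2 (0.16, adjusted p = 0.066) was called without HBL2 PT replicate 3 (0.18, adjusted p = 0.037), with the 75th percentile filter (adjusted p = 0.041) and with percentile ranks (adjusted p = 0.035). ANXA5 (0.12, adjusted p = 0.22) and ANXA1 (0.034, adjusted p = 0.89) were not called.

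The rest of both families was mostly dim. Of 15 other S100 genes, 5 were tested, and 10 had a score of at least 0.73 on fewer than 2 arrays, among them the myeloid pair S100A8 (0.081 to 0.75) and S100A9 (0.36 to 0.73). Of the 5 tested, 0 were called in either line, where 11.8% of all genes were called in HBL2 and 4.28% in JEKO. S100A1, a regulator of calcium handling in muscle that lies beside S100A13, had a difference between the lines of -0.77 ± 0.17 (adjusted p = 0.0091, limma), from changes of -0.32 in HBL2 and 0.45 in JEKO. It is named after its values were seen. Of 9 other annexins 3 were tested and 0 were called in either line. With so few genes tested, 0 calls in these lists are near the share over all genes.

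Among 14 tested binding partners of 18 listed, PLA2G4A, the cytosolic phospholipase A2 that annexin A1 inhibits, rose in HBL2 BR. Its group mean went from 0.67 ± 0.05 to 1.61 ± 0.064 (SD, n = 3), a rise of 0.94 ± 0.095 (adjusted p = 4.36e-06, limma), against 0.17 in JEKO (adjusted p = 0.50). It passed the filter through the HBL2 BR arrays alone, where it is high, so that it differed between the HBL2 groups is partly set by the filter. PDCD6, a penta-EF-hand protein that binds annexins A7 and A11, fell by 0.31 (adjusted p = 0.011), and 0 partners were called in JEKO. Of 8 tested receptors and plasmin system genes, 0 were called in HBL2. In JEKO 1 was called: BSG, a receptor of S100A9, fell by 0.29 at the threshold (adjusted p = 0.0497, limma). The partner calls in HBL2 were 1 higher and 1 lower. Of all genes, 11.8% were called in HBL2 and 4.28% in JEKO, so the counts of both lists are near the background.

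The list of other EF-hand proteins also holds CAST, the calpastatin gene, which encodes no EF-hand protein. In this list 4 of 15 tested genes fell in HBL2 and 0 rose, where 6.86% of all genes were called lower and 4.91% higher. GCA, which encodes grancalcin (-0.47, adjusted p = 1.20e-04), HPCAL1 (-0.39), SRI, which encodes sorcin (-0.27), and CHP1 (-0.24, adjusted p = 0.045) were those genes. In JEKO 2 rose and 0 fell, where 2.56% of all genes were called higher and 1.72% lower. They were GCA (0.62 ± 0.08, adjusted p = 3.87e-04, limma) and RCN1, a calcium-binding protein of the endoplasmic reticulum (0.50, adjusted p = 0.0028). GCA thus had opposite called changes in the lines, as S100A4 and S100A10 had, with a difference of -1.09 ± 0.104 (adjusted p = 8.78e-06, limma). The median change of the list was -0.096 in HBL2 and 0.028 in JEKO.

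The list of cortical actin linkers also holds genes of galectins and vimentin. Of its 19 genes 2 rose and 6 fell in HBL2, where 4.91% of all genes were called higher and 6.86% lower. LGALS3, which encodes galectin-3, rose by 0.65 (adjusted p = 7.98e-05) and PFN1, which encodes profilin, by 0.37 (adjusted p = 5.05e-04). CORO1A, a coronin of blood cells, fell by 0.46 and the capping protein gene CAPG by 0.43 (adjusted p = 1.70e-04 and 0.0031). In JEKO, where 2.56% were called higher and 1.72% lower, 0 rose and 2 fell. These were RDX, which encodes radixin, by 0.41 (adjusted p = 0.0061) and VIM, the vimentin gene, by 0.35 (adjusted p = 0.027).

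**Figure D5:**
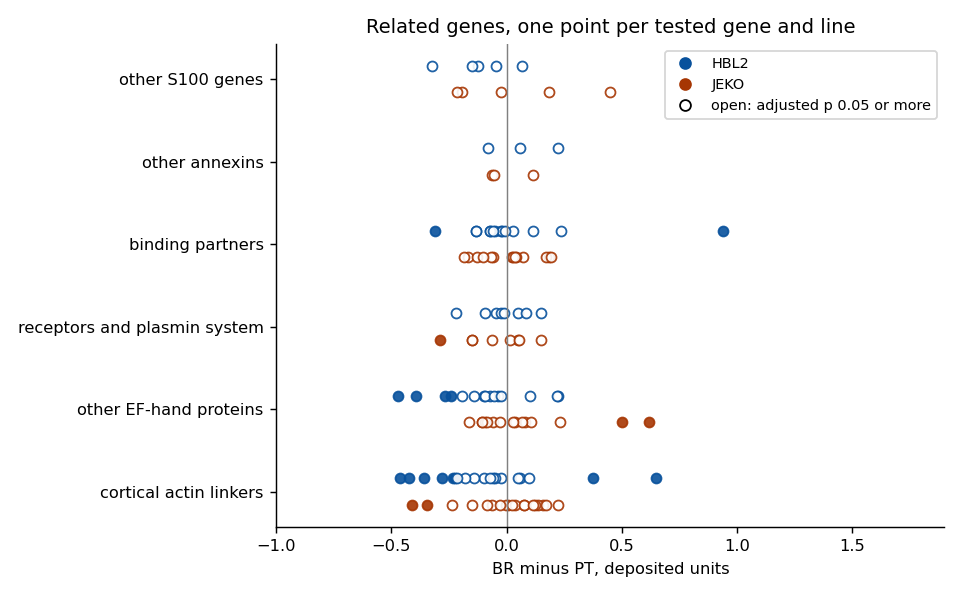
Change between BR and PT cells (horizontal axis, deposited units) of the tested genes in 6 related lists, 1 point per gene and line (HBL2 blue, JEKO brown; filled where the limma adjusted p was under 0.05). The rightmost HBL2 point among the binding partners is PLA2G4A (0.94), and the filled JEKO points among the EF-hand proteins are GCA (0.62) and RCN1 (0.50).

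The 5 S100 genes lie on chromosome 1, S100A10 next to S100A11 and S100A6 next to S100A4 in the order of tested genes. Of 26 other tested neighbours, the nearest 2 on each side of each of the 9 genes, 3 were called in HBL2, where 11.8% of all genes were called, so this count is near the background. All 3 were higher (ICE2 and GTF2A2 near ANXA2 at 0.27 and 0.19, and TNIP1 near ANXA6 at 0.19). In JEKO, where 4.28% of all genes were called, 2 were called, both higher: THEM4, next to S100A10 (0.34, adjusted p = 0.020), and GM2A, near ANXA6 (0.33, adjusted p = 0.030). Around S100A4 and S100A6, the neighbours S100A7A, S100A16, S100A14 and PGLYRP4 changed by -0.13 to 0.066 in HBL2 and by -0.21 to 0.18 in JEKO, with adjusted p from 0.42 to 0.98.

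Likeness of pattern was measured as the root mean square difference over the 10 arrays after each gene was centred on its own mean. The arrays fall into 4 groups, so it mostly compares group means, and it carries no test. The 3 genes nearest to S100A4 were PAG1 (0.16), MYO1F (0.17) and S100A10 (0.19), of 14528 ranked. Nearest to S100A10 were CD48 (0.13), GSAP (0.16) and SLCO4C1 (0.17), and S100A4 came 12th. CD48, a lymphocyte surface protein, had a mean of 2.38 in HBL2 PT and 1.70 in HBL2 BR, and of 1.51 in JEKO PT and 1.96 in JEKO BR.

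Nearest to S100A6 were SCN3A (0.18), TYROBP (0.19) and HSPA6 (0.20), and to S100A11 LY6E, AP1S3 and ITGB2 (0.15 each). LRRN3 (0.12), STEAP1 (0.13) and ADORA1 (0.16) were nearest to ANXA1, and CALHM6 (0.070), MELTF (0.093) and RNF135 (0.11) to ANXA6. For S100A13 they were TMEM161A, PGAP2 and FKBP8 (0.040 to 0.048), for ANXA2 PSMB4, EIF3M and DNTTIP2 (0.026 to 0.032) and for ANXA5 ZNF143, TRIM25 and KIF3B (0.026 to 0.031). These 3 members vary little, which makes small differences easy to reach.

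The summed score of the 8 B cell and mantle cell markers moved with the HBL2 falls too, as did the myeloid and the T and NK cell sums below. The B cell and mantle cell sum was 15.95 to 16.89 in HBL2 PT and 14.71 to 15.69 in HBL2 BR, without overlap. CD79A (-0.35, adjusted p = 9.81e-04, limma) and CD79B (-0.25, adjusted p = 0.017), the signalling chains of the B cell receptor, fell there. Of the 8 markers, 2 were thus called lower and 0 higher in HBL2, where 6.86% and 4.91% of all genes were. In JEKO the sum was 17.7 to 17.99 in PT and 17.34 to 17.76 in BR, which overlap. CD22 rose (0.35, adjusted p = 0.042, limma), so 1 of the 8 was called higher and 0 lower, where 2.56% and 1.72% of all genes were. The part of this shift in the results was not tested.

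S100 genes and annexins are also high in myeloid and stromal cells. The summed score of 8 myeloid markers with a probe set was 4.69 to 5.87 in HBL2 PT and 3.19 to 4.27 in HBL2 BR, so it moved with the HBL2 falls, and it was 3.93 to 4.20 in JEKO PT and 4.17 to 4.79 in JEKO BR. Of 6 tested myeloid markers LYZ fell in HBL2 (-0.59, adjusted p = 0.0088) and 0 rose, and 0 were called in JEKO. Of all genes, 6.86% were called lower and 4.91% higher in HBL2, and 4.28% were called in JEKO. With so few genes tested, the myeloid, stromal and erythroid counts are near these shares. LYZ passed the filter through HBL2 PT arrays alone. CD14 and CD163 failed the filter. The myeloid markers were dim. Their highest score on any array was 1.155 for LYZ and, next to it, 0.88 for CSF3R, where 0.73 was the middle score of an array. The myeloid sum was thus made mostly of scores near or below that middle. Sums of 8 stromal and epithelial markers were 3.78 to 4.84 in HBL2 PT, 4.81 to 5.26 in HBL2 BR, 5.01 to 5.59 in JEKO PT and 5.11 to 5.35 in JEKO BR, with 0 of 5 tested called in either line. Of 8 T and NK cell markers 7 failed the filter, yet their summed score also fell without overlap in HBL2. It was 3.99 to 4.36 in HBL2 PT and 3.80 to 3.98 in HBL2 BR, and 4.04 to 4.31 in JEKO PT and 4.09 to 4.455 in JEKO BR. A lower sum in HBL2 BR was thus not particular to the B cell and myeloid lists. PECAM1, the endothelial marker that passed, fell in both lines (-0.47 and -0.44, adjusted p = 0.0013 and 0.024). Of 3 tested erythroid and platelet markers 0 were called. The part of such cells in the results was not tested.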

How the data were processed

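The 10 arrays were grouped by their titles. The deposited score of 54675 probe sets was used as the authors gave it. The submitters' processing notes name MAS5 with no version, per the labels, and what followed it is not given in the sources used. The number of arrays limits the precision.

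Probe sets were named from the platform annotation, and 41037 of 41091 gene numbers matched RefSeq. Kept were probe sets that reached the 50th percentile (0.73) on 2 or more arrays. The brightest stood for its gene, which left 14529 genes. The fit used limma 3.58.1 under R 4.3.3 (4 group means, eBayes with an intensity trend, 6 residual degrees of freedom), two-sided, and genes with a Benjamini-Hochberg adjusted p under 0.05 over all genes were called. The script was tested on simulated data. After ±, a change has its standard error and a level its standard deviation.

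The genes and lists were chosen with earlier results of these data known. Named were the 9 genes, in each list and line the called genes with the largest changes (4 at most), the 3 genes most alike in pattern and the nearest 2 tested neighbours on each side. Alternatives were other filters, variance models, probe set rules and scales, each line alone, a replicate block, a beta-actin covariate and leaving out each array. The probe set shared by SNU13 and ANXA2 was read but not tested. It scored 2.49 to 2.65 in HBL2 PT and 2.62 to 2.66 in HBL2 BR. In JEKO it was higher, at 2.839 to 2.885 in PT and 2.739 to 2.799 in BR, unlike the bright ANXA2 sets. The part of ANXA2 in this score cannot be told.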

Additional observations from a re-analysis of the deposited data

Results flagged for a closer look

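These results stand out because the change with resistance differed between HBL2 and JEKO by a test of the difference itself (HBL2 change minus JEKO change, limma, adjusted p under 0.05). No group had 4 arrays, so no array was tested as an outlier.

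The S100 differences were -1.58 for S100A10, -1.56 for S100A4, -0.95 for S100A6, -0.82 for S100A11 and -0.77 for S100A1. In the annexins they were 1.05 for ANXA1 and -0.66 for ANXA6.

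Among EF-hand genes the differences were -1.09 for GCA, -0.53 for RCN1 and -0.50 for SRI. PLA2G4A had 0.77 and BSG had 0.44. ANXA1 and PLA2G4A passed the filter through the HBL2 BR arrays alone, so their differences are partly set by the filter. In the list of cortical actin linkers, CAPG had -0.58, LGALS3 0.51, RDX 0.47, CORO1A -0.40 and PFN1 0.34. Of the chromosomal neighbours, GM2A had -0.43 and THEM4 -0.33 (adjusted p = 0.0496).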

How the results depend on the processing

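S100A4, S100A6, S100A10 and S100A11 were called lower in HBL2 under all alternatives that measured them (19 for S100A4, which has no probe set without _x_at and _s_at sets, and 20 for the others). ANXA1 was called there except with the median over probe sets, where it kept its sign and 0 members were called higher in HBL2 and 0 in the difference between the lines. Without _x_at and _s_at probe sets, S100A4 and ANXA2 had no value and the difference was called lower in 3 members instead of 5. In JEKO the count called higher was 1 with either of these probe set rules, and 1 to 3 when an array was left out. JEKO has 2 arrays a group, and a lone array was assumed to vary like the others. All genes called in JEKO numbered 622, or 120 to 942 when an array was left out and 389 without the trend, and the difference between the lines 1266, or 658 to 1473. In HBL2 the 1711 became 1118 without BR replicate 2, and the 3361 between the PT groups became 1974 without JEKO PT replicate 2.

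Signs turned only in changes that were not called. With the median over probe sets S100A6 changed by 0.11 and S100A13 by -0.012 in JEKO, and without _x_at and _s_at sets ANXA6 changed by 0.023 in HBL2. With an array left out, S100A13 in HBL2 ran from -0.12 to 0.0015, ANXA2 in JEKO from -0.018 to 0.051, ANXA5 from -0.032 to 0.020 in HBL2, -0.040 to 0.058 in JEKO and -0.067 to 0.031 in their difference, and ANXA1 between the PT groups from -0.048 to 0.12. The cause was not tested.

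The labels do not say that a replicate number marks a shared culture or day, so the number was not taken as a pairing. Deviations of same-numbered arrays of a line from their group means correlated at 0.0075 to 0.14. In groups of 2 or 3 arrays such deviations are tied to each other by the group mean, so these correlations cannot decide on a pairing. With the replicate block no call of the 9 genes changed: S100A4 had an adjusted p of 0.0098 and ANXA6 of 0.022 in JEKO.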
